A study of Mus musculus with 12 samples.

Results

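The interleukin-1 (IL-1) cytokines, their antagonist and their receptors were followed in mouse neutrophils that lacked or carried the adapter protein CARD9. The group was fixed as 8 genes by their symbols in the annotation of the array platform: the cytokine genes *Il1a*, *Il1b* and *Il18*, the antagonist gene *Il1rn*, the decoy receptor gene *Il1r2*, and the receptor chain genes *Il1r1*, *Il1rap* and *Il18rap*. Of these, 7 were measured, each by 1 transcript cluster, among 19938 genes and 28944 clusters in all. No cluster names *Il1r1* here, and that gene was not analysed here.

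Interleukin-1α and interleukin-1β are separate cytokines that bind the same receptor, which pairs a ligand-binding chain with an accessory chain and signals through the adapter MyD88 to NF-κB. The receptor antagonist occupies that receptor without activating it, and the decoy receptor binds IL-1 without signalling, so that both limit the response. Interleukin-1β and interleukin-18 are made as precursors that caspase-1 cleaves within inflammasomes, whereas the precursor of interleukin-1α is already active, and neutrophils are a known source of IL-1 and carry much of the decoy receptor.

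Total RNA from bone marrow neutrophils was hybridised to 12 Affymetrix mouse gene arrays in 3 experiments, each with 1 array for each of 4 groups. The groups were *Card9*-/- cells on immobilized immune complexes (IC), *Card9*-/- cells on the control surface, wild-type cells on IC, and wild-type cells on the control surface (3 arrays each), all kept there for 4 h. An IC surface carried an immobilized protein, human serum albumin or lactoferrin in the methods, with IgG against it, and the labels name the other surface only as control. The design asks how the response to IC depends on CARD9, an adapter that passes signals from Syk-coupled receptors to NF-κB in myeloid cells.

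The *Card9*-/- mice were homozygous for the germline *Card9* tm1Jrld allele, so all cell types of these animals carried it. The study backcrossed its mutant strains to C57BL/6 over a limited number of generations. The wild-type mice were purchased C57BL/6 animals. The source of the mice, any founder-strain DNA left after the backcross and the *Card9* genotype therefore cannot be told apart. The study used adult mice of both sexes, but the sources used here do not say which age or sex, or how many animals, stood behind each array. Cells were taken from marrow over a density gradient, from intact animals or chimeras without a statement of which here, the labels give them as Ly6G+, and adherent and floating cells were lysed together. The labels call the experiments independent time points, and nothing says that their mice differed, so the p values measure the spread between these arrays, which may be partly technical. In such bulk RNA, fewer cells of a type and less RNA per cell cannot be told apart.

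Values are deposited log2 signals, so a difference of 1 is a doubling of signal. Signals of different clusters depend on their probes and were not set against each other as levels. Only the way in which 2 clusters differ from group to group was compared. *Card9* itself (cluster 10480956) read 6.42, 6.01 and 5.56 in *Card9*-/- cells on IC in experiments 1, 2 and 3, against 8.08, 8.21 and 8.50 in wild-type cells on IC. On the control surface it read 6.39, 5.94 and 5.70 in *Card9*-/- cells and 8.42, 8.43 and 8.75 in wild-type cells, so all 6 *Card9*-/- arrays lay below all 6 wild-type arrays. All 12 neutrophil markers examined, *Ly6g* and *S100a8* among them, exceeded the array median on every array. The array medians were 5.70 to 5.75 in experiment 1, 5.86 to 5.93 in experiment 2 and 5.27 to 5.39 in experiment 3. Groups were therefore compared within experiments, and each difference was tested in limma, blocked by experiment, with p values adjusted over all 28944 clusters.

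*Il1a*, the gene of interleukin-1α, was the only measured member that passed the test between genotypes, on IC and not on the control surface. It averaged 4.91 ± 1.01 in *Card9*-/- cells on IC and 4.27 ± 0.98 in *Card9*-/- cells on the control surface. In wild-type cells it averaged 7.96 ± 1.20 on IC and 5.54 ± 1.74 on the control surface (SD, n = 3 each). Loss of *Card9* went with a lower *Il1a* signal on IC, which passed the test, whereas its response to IC passed the test in neither genotype.

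*Il1a* and *Il1b* lie close to each other on chromosome 2, with 2 annotated genes between them, 0 of them protein-coding, and *Il1rn* lies on the same chromosome. The 250 bases before their transcription starts are shown because the signals of these cytokine and antagonist genes are set against each other below. The coordinates and sequences are those of RefSeq on GRCm38.p6, written 5′ to 3′ in the direction of transcription. Capitals mark matches, on either strand, to TGANTCA, the consensus of AP-1 sites, or to a loose consensus of NF-κB sites, GGG followed by 5 bases of any kind and CC. The matches did not overlap each other. The windows are chr2:129309973-129310222 on the minus strand for *Il1a*, chr2:129371140-129371389 on the minus strand for *Il1b*, and, on the plus strand, chr2:24336610-24336859 and chr2:24345121-24345370 for promoters 1 and 3 of the 3 that *Il1rn* has. The annotated genes reach to 129310186 for *Il1a* and 129371164 for *Il1b*. Most of the *Il1a* window, its capitals included, and a small part of the *Il1b* window therefore lie inside the annotated genes. The window of *Il1rn* promoter 3 lies inside its gene, which spans 24336860 to 24351491.
Il1a: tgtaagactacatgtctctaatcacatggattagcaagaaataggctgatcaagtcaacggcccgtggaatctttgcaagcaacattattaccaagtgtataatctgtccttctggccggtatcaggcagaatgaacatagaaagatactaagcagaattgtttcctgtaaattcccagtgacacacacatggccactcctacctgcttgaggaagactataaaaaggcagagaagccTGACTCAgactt
Il1b: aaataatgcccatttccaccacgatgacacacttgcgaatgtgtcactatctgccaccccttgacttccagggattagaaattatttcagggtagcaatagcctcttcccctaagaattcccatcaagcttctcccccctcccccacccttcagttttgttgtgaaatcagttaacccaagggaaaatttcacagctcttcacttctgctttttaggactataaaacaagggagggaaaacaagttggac
Il1rn promoter 1: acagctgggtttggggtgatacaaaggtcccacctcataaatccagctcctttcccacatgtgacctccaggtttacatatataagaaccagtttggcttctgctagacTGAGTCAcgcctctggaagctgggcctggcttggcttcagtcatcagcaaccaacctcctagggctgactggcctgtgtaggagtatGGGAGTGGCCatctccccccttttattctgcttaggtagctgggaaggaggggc
Il1rn promoter 3: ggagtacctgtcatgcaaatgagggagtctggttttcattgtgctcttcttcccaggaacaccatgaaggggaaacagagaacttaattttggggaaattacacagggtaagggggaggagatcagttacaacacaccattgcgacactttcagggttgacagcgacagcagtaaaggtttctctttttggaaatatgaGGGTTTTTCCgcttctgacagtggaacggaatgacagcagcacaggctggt
The *Il1a* window held 1 AP-1 match, TGACTCA, 12 to 6 bases before the start. The *Il1b* window held no match to either motif. In *Il1rn*, promoter 1 held GGGAGTGGCC 54 to 45 bases and TGAGTCA 141 to 135 bases before the start, promoter 3 held GGGTTTTTCC 51 to 42 bases before it, and promoter 2 held neither. Of all 32851 promoters in that table, 6.75% held the AP-1 motif and 45.8% held the NF-κB motif in the same window. A match is a description of the letters and not of binding. A window with no match may still hold sites with other letters, and it says nothing of factors that act elsewhere.

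On IC, *Il1a* (cluster 10487588) read 3.81, 5.13 and 5.79 in *Card9*-/- cells in experiments 1, 2 and 3, against 6.57, 8.56 and 8.73 in wild-type cells. Every *Card9*-/- value lay below every wild-type value, although the experiments themselves were far apart. The differences within experiments were −2.76, −3.43 and −2.95, with a mean of −3.05 (95% interval −3.81 to −2.29, limma adjusted p = 0.0062), which is 0.121 of the wild-type signal. *Il1a* had the 9th smallest p of all clusters. Of the 7 measured members it was the 1 that passed lower, where 0.117% of all clusters did. It was also the 1 member whose arrays did not overlap in that direction, against 1.03% of all clusters. The call was kept without each experiment in turn (adjusted p from 0.017 to 0.046). It was lost without the block (adjusted p = 1.00) and without moderation of the variances (adjusted p = 0.276).

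Without IC, on the control surface, *Il1a* read 3.21, 5.15 and 4.44 in *Card9*-/- cells, against 3.74, 7.20 and 5.68 in wild-type cells. The *Card9*-/- value was the lower in each experiment, but the ranges of the groups overlapped. The mean difference was −1.27 (−0.52, −2.05 and −1.23) and did not pass the test (limma adjusted p = 0.886). Each of these differences was smaller than every difference seen on IC.

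The response of *Il1a* to IC, the signal on IC minus that on the control surface of the same experiment, was 0.59, −0.02 and 1.34 in *Card9*-/- cells, against 2.84, 1.36 and 3.06 in wild-type cells. As ratios of signal these are 1.51, 0.986 and 2.54 in *Card9*-/- cells and 7.15, 2.57 and 8.33 in wild-type cells. The mean in *Card9*-/- cells was 0.64 (95% interval −0.12 to 1.40, limma adjusted p = 0.9998), and that in wild-type cells was 2.42 (1.66 to 3.18, adjusted p = 0.141). Neither passed the test over all clusters, although *Il1a* ranked 4th by p in wild-type cells. The wild-type response did pass with the experiment as a random block (adjusted p = 0.024) and without experiment 2 (adjusted p = 0.027). In each experiment the *Card9*-/- response was the smaller, with differences of −2.24, −1.38 and −1.71. That difference between the responses averaged −1.78 (95% interval −2.85 to −0.70) and did not pass over all clusters (adjusted p = 0.999). *Il1a* in *Card9*-/- cells on IC differed from wild-type cells on the control surface by 0.07, −2.07 and 0.11. These groups lie next to each other in the order of the means, experiment 2 stood apart, and the comparison was not tested.

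Many of the *Il1a* signals lay at or below the array median. *Il1a* exceeded the array median on 1 of 3 arrays of *Card9*-/- cells on IC and on 0 of 3 arrays of *Card9*-/- cells on the control surface. In wild-type cells it did so on 3 of 3 arrays on IC and 2 of 3 on the control surface. How far a floor of the measurement shortens the differences at such signals was not tested.

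**Figure D1:**
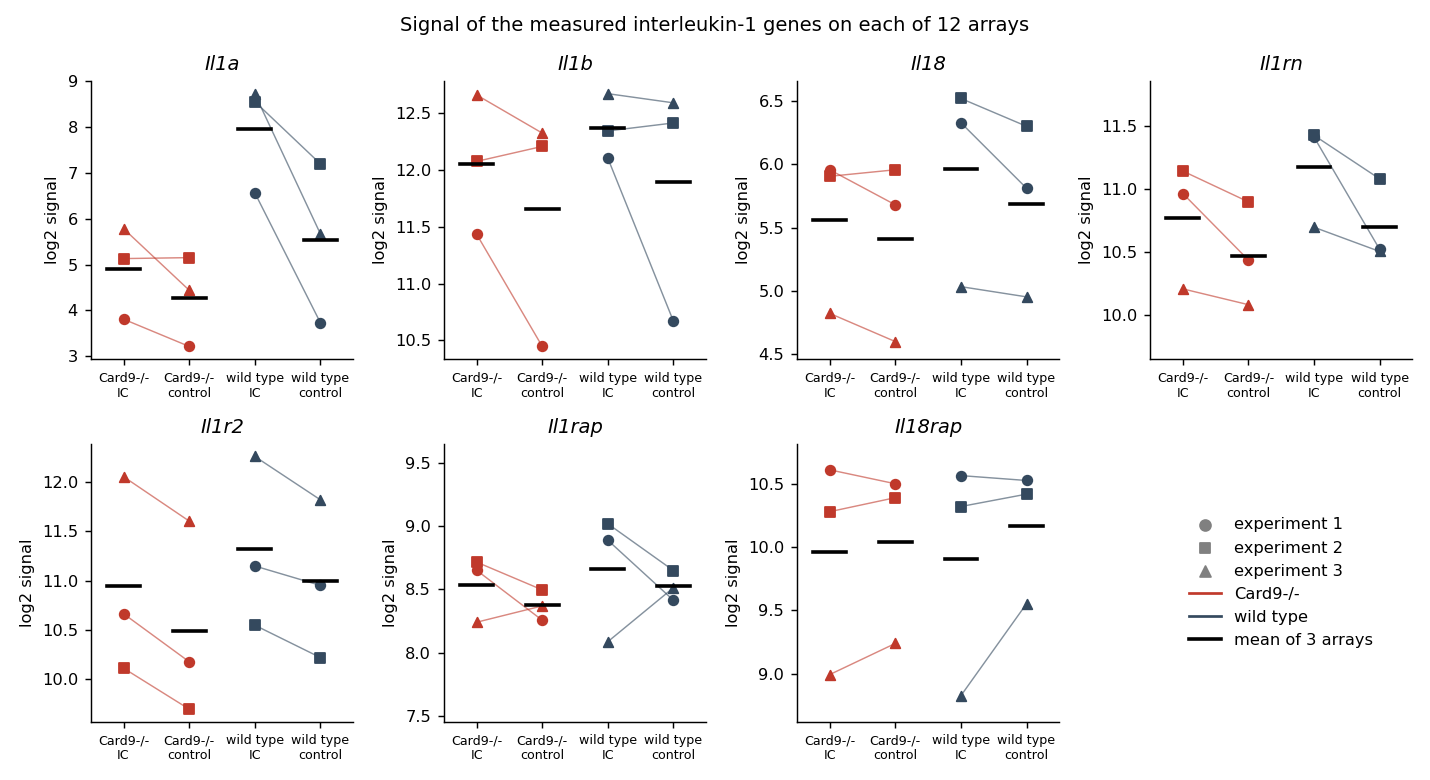
Deposited log2 signal of the 7 measured members (one panel each, with its own vertical axis) in the 4 groups; points are single arrays, joined within experiments 1, 2 and 3, and bars are group means. In the *Il1a* panel the 3 *Card9*-/- arrays on IC, at 3.81 to 5.79, lie below the 3 wild-type arrays on IC, at 6.57 to 8.73.

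*Il1b*, the gene of interleukin-1β, did not pass in any comparison, and its mean difference was smaller than that of *Il1a* in each. Its cluster (10487597) read 11.43, 12.07 and 12.66 in *Card9*-/- cells on IC, against 12.10, 12.34 and 12.67 in wild-type cells on IC. The control arrays read 10.45, 12.21 and 12.32 in *Card9*-/- cells and 10.67, 12.41 and 12.59 in wild-type cells. The genotypes overlapped on both surfaces. The *Card9*-/- value was the lower in every experiment, by −0.67, −0.27 and −0.01 on IC and by −0.22, −0.21 and −0.27 on the control surface. The mean differences of −0.32 on IC (95% interval −0.89 to 0.26, limma adjusted p = 0.788) and −0.23 on the control surface did not pass the test.

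The response of *Il1b* to IC was largest in experiment 1. It was 0.99, −0.13 and 0.34 in *Card9*-/- cells and 1.43, −0.07 and 0.08 in wild-type cells. The means of 0.40 in *Card9*-/- cells and 0.48 in wild-type cells did not pass, and the difference between them was −0.085 (95% interval −0.90 to 0.73). That interval is wide enough to hold a difference of almost 1 in either direction, so like responses were not shown. By quantitative PCR, a separate measure, the study itself reports that IC induced *Il1b* much less in *Card9*-/- neutrophils. Both control arrays of experiment 1, at 10.45 in *Card9*-/- and 10.67 in wild-type cells, were the lowest *Il1b* values of all. The highest signal of any cluster on an array was 13.4 to 13.8, and how far signals near that limit are compressed was not tested.

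*Il18*, the gene of interleukin-18, which drives interferon-γ production with interleukin-12, was lower in *Card9*-/- cells by small amounts. Its cluster (10585194) read 5.96, 5.91 and 4.82 in *Card9*-/- cells on IC, against 6.33, 6.52 and 5.03 in wild-type cells on IC. The control arrays read 5.68, 5.96 and 4.60 in *Card9*-/- cells and 5.81, 6.30 and 4.95 in wild-type cells. Within experiments the genotypes differed by −0.37, −0.62 and −0.21 on IC and by −0.13, −0.34 and −0.35 on the control surface. Neither mean, −0.40 on IC (limma adjusted p = 0.268) and −0.28 on the control surface (adjusted p = 0.954), passed the test. IC shifted *Il18* by 0.15 in *Card9*-/- cells and 0.27 in wild-type cells, which did not pass either. *Il18* exceeded the array median on 6 of 12 arrays.

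The antagonist gene *Il1rn* read lower in *Card9*-/- cells in every experiment and on both surfaces, by much less than *Il1a*. Its cluster (10469816) read 10.96, 11.14 and 10.21 in *Card9*-/- cells on IC, against 11.41, 11.42 and 10.70 in wild-type cells on IC. The values without IC were 10.44, 10.90 and 10.08 in *Card9*-/- cells and 10.52, 11.08 and 10.50 in wild-type cells. The genotypes overlapped on each surface, and experiment 3 was the lowest in every group. The response to IC was 0.53, 0.24 and 0.13 in *Card9*-/- cells and 0.89, 0.34 and 0.19 in wild-type cells. The means were 0.30 in *Card9*-/- cells (limma adjusted p = 0.9998) and 0.47 in wild-type cells (adjusted p = 0.430). Between genotypes *Il1rn* differed by −0.45, −0.28 and −0.49 on IC, with a mean of −0.41 (adjusted p = 0.371), and by a mean of −0.23 on the control surface. None of these passed.

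*Il1r2*, the decoy receptor, read higher on IC in every experiment of either genotype and lower in *Card9*-/- cells on both surfaces, without passing the test. Its cluster (10345752) read 10.66, 10.11 and 12.06 in *Card9*-/- cells on IC, against 11.15, 10.55 and 12.26 in wild-type cells on IC. Its values on the control surface were 10.18, 9.69 and 11.60 in *Card9*-/- cells and 10.95, 10.22 and 11.82 in wild-type cells. Experiment 3 was the highest in all groups, and the groups overlapped, while within each experiment wild-type cells on IC were the highest and *Card9*-/- cells on the control surface the lowest. IC shifted *Il1r2* by 0.49, 0.42 and 0.45 in *Card9*-/- cells and by 0.20, 0.33 and 0.44 in wild-type cells. The means of 0.45 in *Card9*-/- cells (limma adjusted p = 0.9998) and 0.32 in wild-type cells (adjusted p = 0.454) did not pass. The genotypes differed by −0.49, −0.44 and −0.21 on IC and by −0.78, −0.52 and −0.22 on the control surface. The means of −0.38 on IC (adjusted p = 0.311) and −0.51 on the control surface (adjusted p = 0.504) did not pass. The difference between the responses was 0.13 (95% interval −0.23 to 0.49), so neither a like response nor an unlike one was shown.

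The receptor chains had small differences. *Il1rap* encodes the accessory chain that IL-1 receptors share, and *Il18rap* encodes the accessory chain of the interleukin-18 receptor. On IC, *Il1rap* (cluster 10434845) read 8.65, 8.72 and 8.24 in *Card9*-/- cells and 8.89, 9.02 and 8.09 in wild-type cells. Its control values were 8.26, 8.50 and 8.37 in *Card9*-/- cells and 8.41, 8.65 and 8.51 in wild-type cells. The genotypes overlapped on both surfaces, and the response to IC was below 0 in experiment 3, at −0.13 in *Card9*-/- against −0.43 in wild-type cells, and above 0 in the other experiments. *Il18rap* (cluster 10345824) read 10.61, 10.28 and 8.99 in *Card9*-/- cells on IC and 10.57, 10.32 and 8.83 in wild-type cells on IC. Its control arrays read 10.50, 10.39 and 9.24 in *Card9*-/- cells and 10.53, 10.42 and 9.55 in wild-type cells. Its mean genotype difference was 0.06 on IC and −0.12 on the control surface, and its mean response to IC was −0.08 in *Card9*-/- against −0.26 in wild-type cells. Its genotypes overlapped on both surfaces, and in all groups experiment 3 was the lowest. On chromosome 1 *Il18rap* follows *Il1r1* with 4 annotated genes between, 3 of them protein-coding receptor genes (*Il1rl2*, *Il1rl1* and *Il18r1*), and *Il1r2* lies on the other side of *Il1r1*.

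Across the measured members, the genotype comparison on IC had a median of −0.38 (all clusters −0.014), and that on the control surface had a median of −0.23 (all clusters 0.026). On IC, 5 of 7 were below 0 in all 3 experiments, where 15.4% of all clusters were, and 4 of 7 were lower at an unadjusted p under 0.05 (5.1%). On the control surface 7 of 7 were below 0 in all 3, where 12.8% of all clusters were, although 0 of 7 passed limma's adjusted test there, as 0.038% of all clusters did, and 3 of 7 were lower at an unadjusted p under 0.05 (all clusters 2.22%). Members of 1 family on the same arrays share their RNA and are not replicates. IC against control had 0 of 7 called in either genotype, as had all clusters (0%). In *Card9*-/- cells 2 of 7 members were above 0 in all 3 experiments (all clusters 11.5%) with a median of 0.30, and in wild-type cells 4 of 7 were (18.8%) with a median of 0.32. At an unadjusted p under 0.05, 1 of 7 was higher on IC in *Card9*-/- cells (all clusters 1.87%) and 4 of 7 in wild-type cells (5.18%). The difference between the responses had 0 of 7 called (all clusters 0%), with 2 below 0 in all 3 experiments (16.6%) and 1 above 0 in all 3 (12.4%), and 1 lower at an unadjusted p under 0.05 (2.65%). Each genotype comparison shares arrays with the IC comparisons, so their values are only set side by side.

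**Figure D2:**
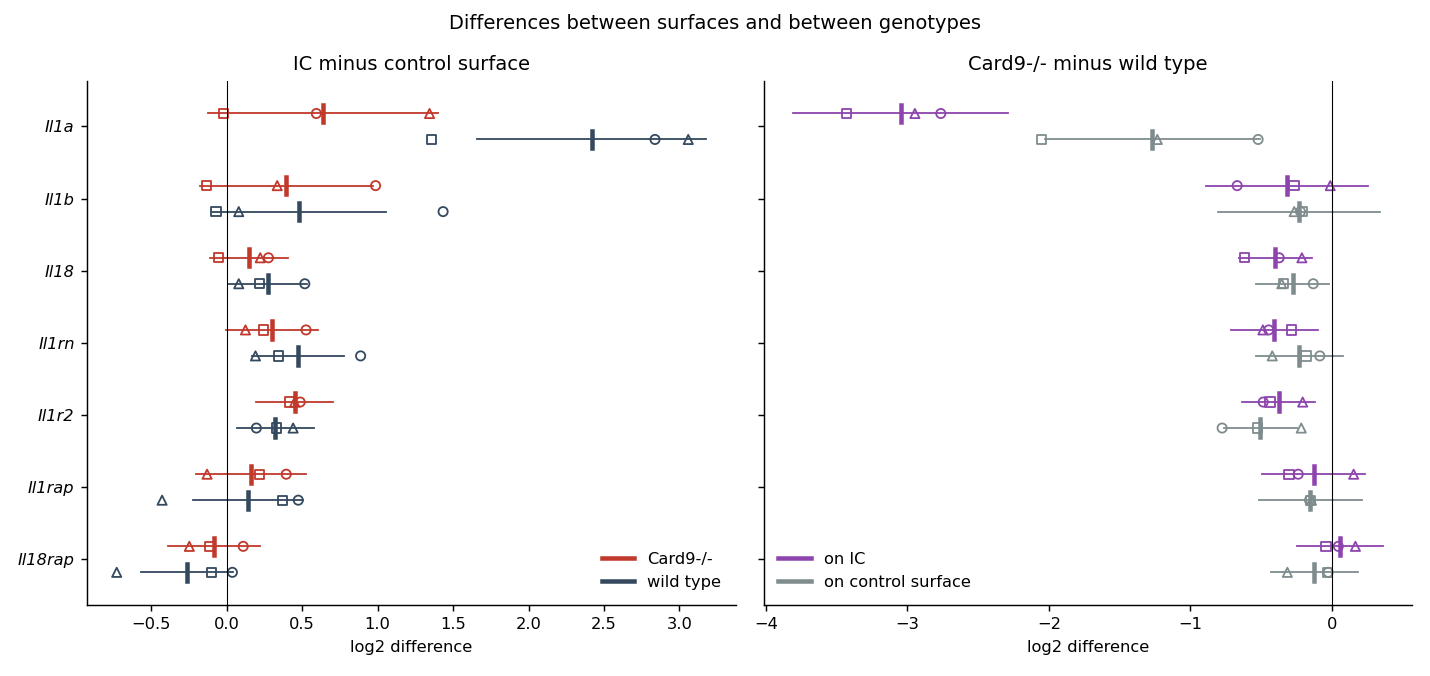
Log2 difference of each measured member for IC minus control surface (left, by genotype) and *Card9*-/- minus wild type (right, by surface); open symbols are experiments 1 (circle), 2 (square) and 3 (triangle), thick ticks the means and lines their 95% limma intervals. *Il1a* on IC stands at −3.05, whereas the other members lie between −0.41 and 0.06 there.

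The paired genes were then compared within each array, which removes any shift that a whole array shares. The difference between the log2 signals of *Il1a* and a second gene has no meaning as a level, but its change between groups says whether *Il1a* moved more. For *Il1a* minus *Il1b*, the group means were −7.15 on IC and −7.39 on the control surface in *Card9*-/- cells, and −4.42 on IC and −6.35 on the control surface in wild-type cells. The wild-type IC group was the highest in every experiment. Permuting the groups within experiments (exact test over 13824 assignments, smallest possible p = 0.0017) gave p = 0.012 for *Il1b*, p = 0.017 for *Il1rn* and p = 0.036 for *Il1r2*. Adjusted over these 3 pairs, which all share *Il1a*, the values of this exact permutation test were 0.026, 0.026 and 0.036. In each pair, few relabellings of the groups within experiments set the 4 group means as far apart as the true labels did. With 1 array per group in each experiment, this reflects how alike the experiments were. The test does not say which groups, or which gene of a pair, set the means apart. The members were chosen with earlier results of these data known. With any 1 experiment left out this exact test, over 2 experiments, gave p from 0.083 to 0.25, against a smallest possible p of 0.042.

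The genotype difference on IC of *Il1a* minus that of *Il1b* was −2.10, −3.16 and −2.94, a mean of −2.73 ± 0.56. Minus that of *Il1rn* it averaged −2.64 ± 0.44, and minus that of *Il1r2* −2.67 ± 0.36 (SD, n = 3 experiments each). All 9 of these values ran the same way. On the control surface the means were −1.04 ± 0.77 against *Il1b*, −1.04 ± 0.74 against *Il1rn* and −0.76 ± 0.92 against *Il1r2*, the last with 1 experiment at 0.25. These values leaned on experiment 2, without which they were −0.63, −0.62 and −0.38, and the value against *Il1r2* was −1.27 without experiment 1. With 3 experiments the exact sign-flip test of a single contrast cannot give less than p = 0.25.

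The response of *Il1a* to IC beyond that of its partners was seen in wild-type cells in every experiment. In *Card9*-/- cells it was 0.24, 0.34 and 0.19 on average beyond *Il1b*, *Il1rn* and *Il1r2*, with at least 1 experiment below 0 in each pair. In wild-type cells it was 1.94 ± 0.90, 1.94 ± 0.93 and 2.10 ± 0.92 beyond the same genes. The difference between the genotypes in this excess was −1.69 ± 0.34 for *Il1b*, −1.60 ± 0.30 for *Il1rn* and −1.91 ± 0.56 for *Il1r2*. It was below 0 in all 3 experiments for each pair. The excess in *Card9*-/- cells rested on experiment 3, without which its means were −0.14, −0.098 and −0.16.

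**Figure D3:**
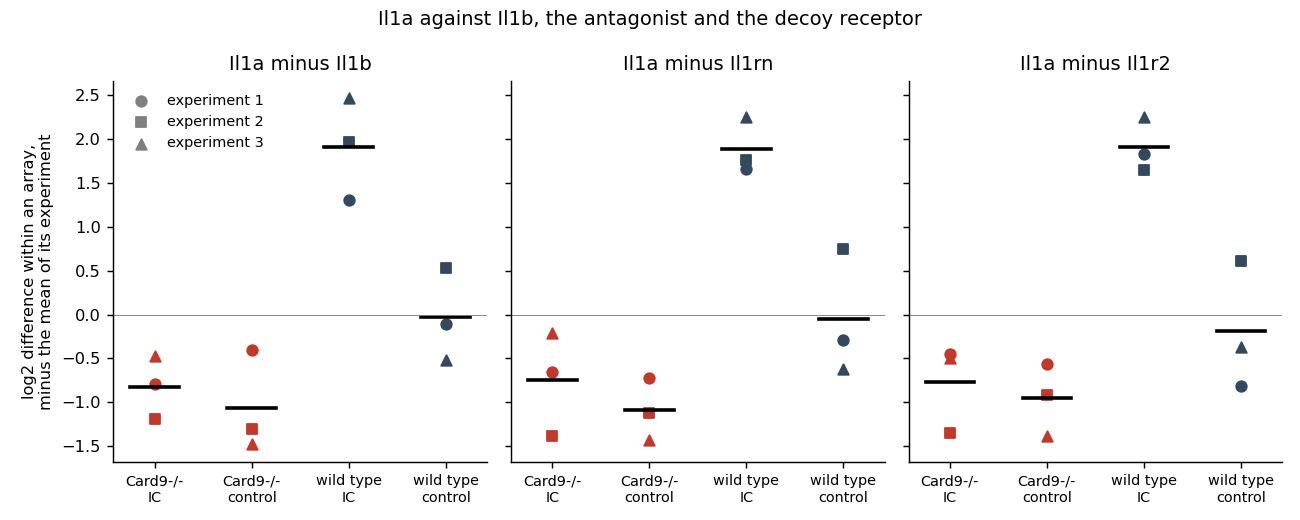
Within-array log2 difference of *Il1a* minus *Il1b*, *Il1rn* or *Il1r2* (one panel each) in the 4 groups, with the mean of the 4 arrays of each experiment subtracted; symbols are experiments 1, 2 and 3, each point 1 array, and bars group means. The wild-type arrays on IC lie at 1.30 to 2.46 in the *Il1b* panel, above the arrays of the other 3 groups, of which the highest is 0.54.

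Genes whose signals ran most like those of the members were looked up across the arrays. Pearson's r over the 12 arrays, after subtracting the mean of each experiment, was taken against all other single-gene clusters, and the 5 highest of 21788 are named for *Il1a*, *Il1b*, *Il1rn* and *Il1r2*. The arrays share groups and experiments, so r is a description. For *Il1a* they were *Pmvk* (r = 0.978), *Slpi* (0.973), *Snx20*, *Rilpl2* and *Rab20* (0.961). *Slpi* encodes a secreted inhibitor of leukocyte proteases, and *Rab20* a small GTPase of membrane traffic. *Rab20* differed by −0.99 between genotypes on IC, and its response to IC was 0.20 in *Card9*-/- cells, against 1.00 in wild-type cells. On the control surface the genotypes differed in *Rab20* by −0.19, and *Slpi* differed by −0.26 on IC. Both genes were picked for their likeness to *Il1a*, so a like pattern follows from the choice.

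For *Il1b* the 5 were *Cd14* (r = 0.944), *Acod1*, *Ccnyl1*, *Siglece* and *C1qtnf9* (0.918). *Cd14* encodes a co-receptor for bacterial lipopolysaccharide, and *Acod1* the enzyme that makes itaconate. The mean response of *Cd14* to IC was 1.22 in *Card9*-/- cells and 1.17 in wild-type cells. These likenesses leaned on experiment 1, without which r for *Cd14* was 0.737 and that for *Ccnyl1* 0.501. For *Il1rn* the 5 were *Clec4d* (r = 0.966), *Apbb3*, *Nod1*, *Ubtd1* and *Ggct* (0.949), of which *Nod1* encodes a sensor of bacterial peptidoglycan and *Clec4d* a C-type lectin receptor for fungal and mycobacterial ligands. For *Il1r2* they were *Ccrl2* (r = 0.950), *Zbp1*, *Meig1*, *Fcgr4* and *Cmc2* (0.933). *Ccrl2* encodes a receptor that binds chemerin, and *Fcgr4* an Fc receptor for IgG. *Ccrl2* differed between genotypes by −2.04 on IC and −1.71 on the control surface, with a mean below 0 on both surfaces, as *Il1r2* had. No gene was in more than 1 of the 4 sets, but sets of 5 out of 21788 can differ even where the members themselves move alike. Between members, r with *Il1a* was 0.914 for *Il18*, 0.819 for *Il1r2*, 0.814 for *Il1rn*, 0.627 for *Il1b*, 0.358 for *Il1rap* and −0.360 for *Il18rap*.

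**Figure D4:**
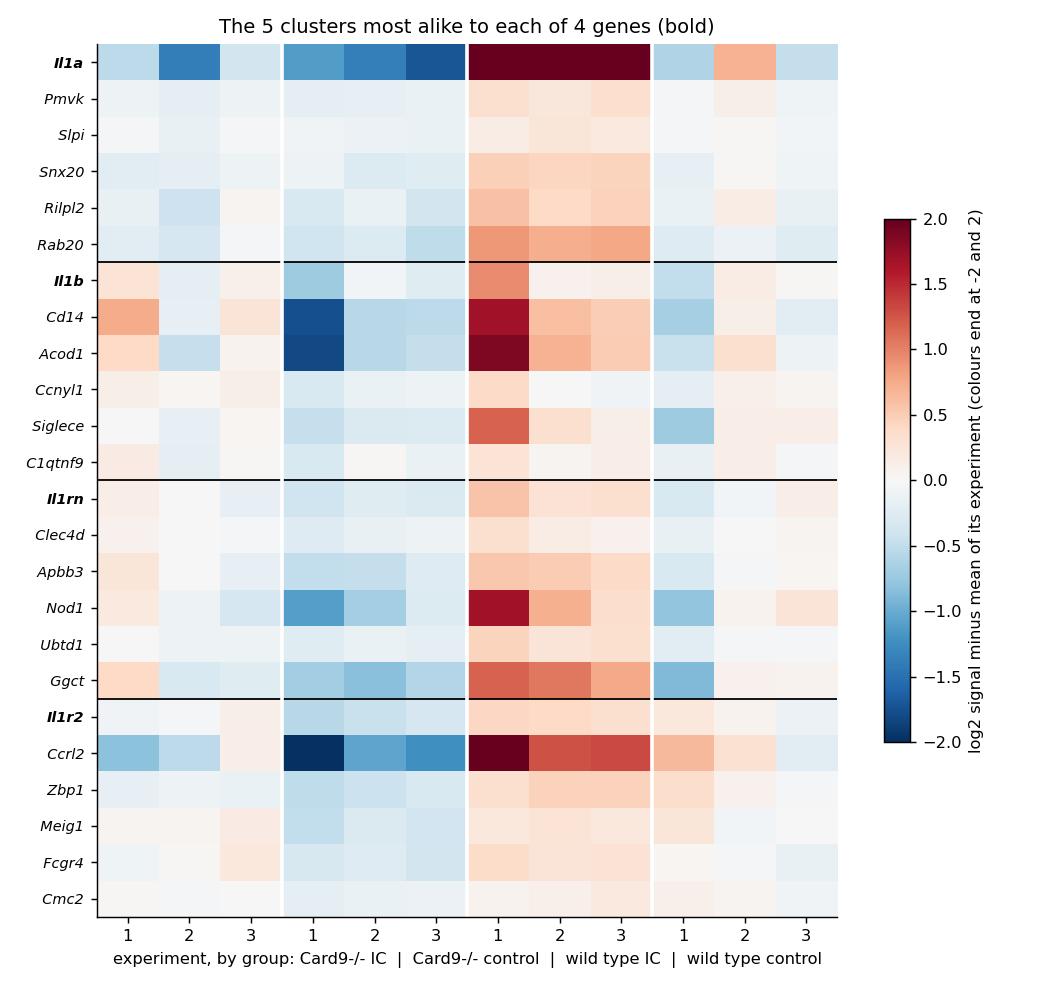
Heat map of log2 signal minus the mean of its experiment for *Il1a*, *Il1b*, *Il1rn* and *Il1r2* (bold) and the 5 clusters most like each below it; columns are the 12 arrays by group and experiment, and colours end at −2 (blue) and 2 (red). The 3 columns of wild-type cells on IC are the reddest for *Il1a* and its 5 clusters (r from 0.961 to 0.978), and the *Il1b* block is strongest in experiment 1.

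Of the rest of the pathway 0 genes passed limma's adjusted test in any comparison. At an unadjusted p under 0.05 and on IC, 9 of 42 genes were lower in *Card9*-/- cells (all clusters 5.1%) and 1 was higher (4.03%), and on the control surface 6 were lower (2.22%) and 2 higher (2.43%). By the same measure the response to IC had 0 of 42 genes in *Card9*-/- cells (all clusters 3.01%), and 5 higher (5.18%) and 2 lower (4.41%) in wild-type cells. The difference between the responses had 0 of 42 (3.68%). The other ligands and binding proteins of the family (7 of 7 measured) had a median of −0.17 for the genotype difference on IC and of 0.10 for the wild-type response. Among them *Il36a*, a ligand of the interleukin-36 receptor, differed between genotypes on IC by −0.24, −1.11 and −0.67 (mean −0.67, limma adjusted p = 0.268). Its wild-type response was 0.24, 0.90 and 1.13. The *Il36a* signal averaged 4.52 over all arrays, below every array median (5.27 to 5.93), and the part of a floor in these values was not tested. The other receptors (5 of 6 measured) lay near 0, at a median of −0.018 for the genotype difference on IC and −0.073 for the wild-type response.

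The genes that signal from the IL-1 receptor (12 of 13 measured) had medians of −0.034 for the genotype difference on IC and −0.011 for the wild-type response. *Irak2*, a kinase of the MyD88 complex, had differences of −1.02, −0.79 and −0.78 between genotypes on IC (mean −0.86, limma adjusted p = 0.119). The genes of processing and release (18 of 18 measured) had a median of −0.14 on IC, and 5 of the 18 were lower at an unadjusted p under 0.05 (all clusters 5.1%). *Nlrp3*, a sensor that assembles the inflammasome, differed between genotypes on IC by −1.21, −1.07 and −0.65 (mean −0.97, adjusted p = 0.084). *Casp4*, the caspase of the lipopolysaccharide-sensing pathway, differed by −1.72, −0.78 and −0.87 (mean −1.12, adjusted p = 0.131). Both were lower in *Card9*-/- cells in all 3 experiments and neither passed. *Mefv*, the gene of pyrin, named after its values were seen because it lies farthest from 0, had a mean of −1.67 (adjusted p = 0.158). Fitted on the arrays of the 2 IC groups alone, *Irak2*, *Nlrp3*, *Casp4* and *Mefv* each passed (limma adjusted p from 0.037 to 0.043). In that fit 173 of all 28944 clusters passed, against 47 in the main fit. These genes were picked by their values in this same comparison, so their passing there is not separate support.

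**Figure D5:**
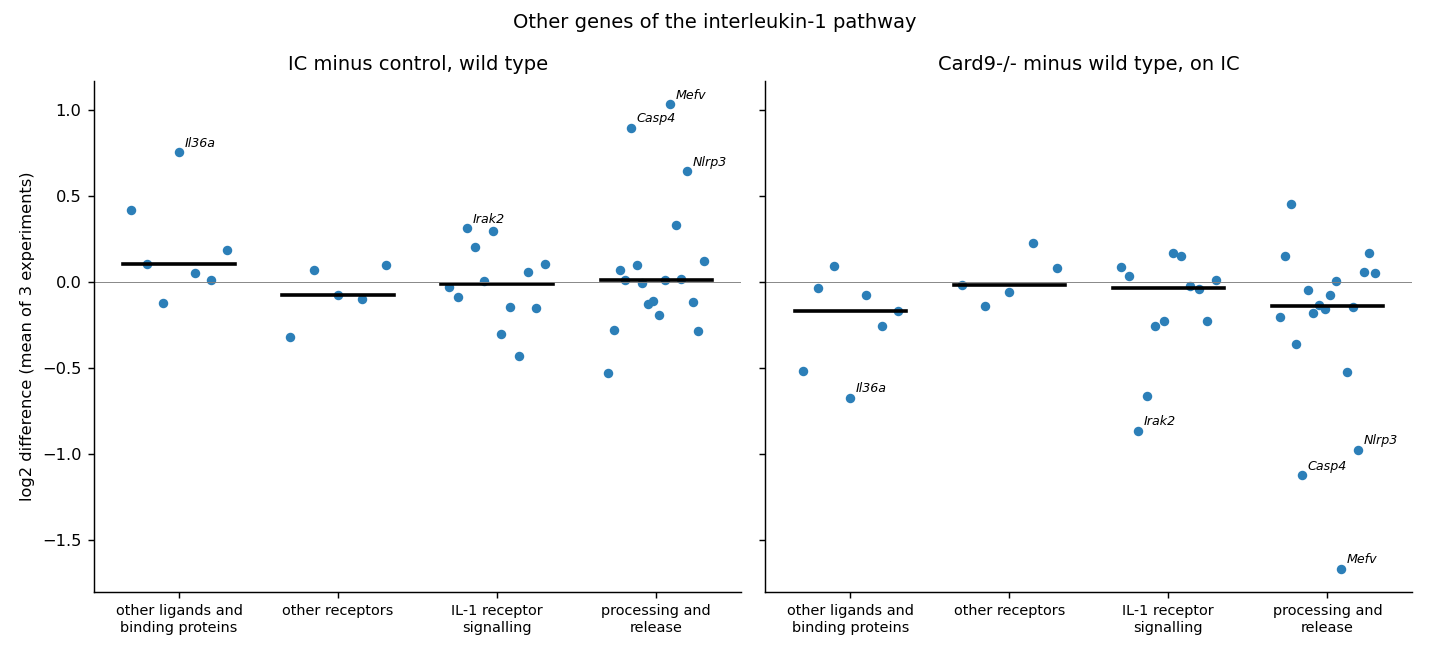
Mean log2 difference over 3 experiments of each gene of the 4 pathway lists, for IC minus control in wild-type cells (left) and for *Card9*-/- minus wild type on IC (right); each point is 1 gene, its sideways place has no meaning, and bars are list medians. Most points lie near 0, and *Mefv*, at −1.67, is the lowest on the right.

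Markers of other blood cells were read on the same arrays. On IC the monocyte and macrophage list (11 of 12 measured, 10 above the array median on every array) had a genotype difference with a median of −0.185, −0.171 and 0.304 in experiments 1, 2 and 3. Its summed linear signal on IC in experiments 1, 2 and 3 was 5170, 6101 and 4691 in *Card9*-/- cells, against 7677, 8471 and 4146 in wild-type cells. On IC it was thus lower in *Card9*-/- cells in experiments 1 and 2 and higher in experiment 3. On the control surface the sum was lower in *Card9*-/- cells in every experiment. It was 4208, 6520 and 4253 there, against 5665, 7967 and 4932 in wild-type cells. The median genotype difference of the list on that surface was −0.268, −0.209 and 0.119 in experiments 1, 2 and 3. B cell markers (7 of 8 measured, 1 above the median on every array) ran higher in *Card9*-/- cells on IC by a median of 0.645, most of it in experiment 1 (1.363), with sums of 295.5 to 4032 in *Card9*-/- and 270.3 to 2903 in wild-type cells. The T and NK cell list (10 of 10 measured) had a median of 0.137. The eosinophil, basophil and mast cell list (8 of 8 measured, 5 above the array median on every array) had one of 0.306. In experiments 1, 2 and 3 the latter list had medians of −0.189, 0.028 and 0.847, so its shift was largest in experiment 3 and reversed in experiment 1. The erythroid list (5 of 6 measured, 0 above the array median on every array) had a median of −0.025 and the neutrophil list one of 0.083. Their part in the values of the members was not tested.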

How the data were processed

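Total RNA of 12 neutrophil samples was amplified, labelled and hybridised to Affymetrix mouse gene arrays (150 ng RNA each). The deposited table holds log2 signals, with 1 column per sample and 1 line per transcript cluster. The steps by which the authors corrected, summarized and normalized them went unnamed in the sources used here. No count or depth exists for arrays, and the number of arrays limits the precision.

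The table held 35556 clusters, of which 6612 control probe sets, whose identifiers precede those of the annotation, were left out. The 28944 others were tested without a filter on signal, 21789 with 1 gene symbol in the platform annotation, 1621 with several and 5534 with none, and 476 had values identical to an earlier cluster. The 4 groups, taken from the labels, entered 1 limma fit (version 3.58.1 under R 4.3.3; lmFit, eBayes) in which each experiment had its own fixed term, leaving 6 residual and 5.40 prior degrees of freedom. The labels give the experiment as a shared time point that holds all 4 groups, and the study expresses its values relative to wild-type control cells of that experiment. Deviations from the group means correlated at 0.67 to 0.87 between arrays of the same experiment and at −0.73 to 0.36 between experiments. Two-sided p values were adjusted after Benjamini and Hochberg within each comparison across the clusters tested, and those under 0.05 passed. Differences between 2 genes within an array were tested by exact permutation in Python 3.11.15. The fit was tested on simulated data.

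The members, the 4 pathway lists and the marker lists were chosen with earlier results of these data known. Genes were named by a rule: the 8 members, *Card9*, the 3 pathway genes with the smallest p for the wild-type response and the 3 for the genotype difference on IC, and the 5 clusters most correlated with each of *Il1a*, *Il1b*, *Il1rn* and *Il1r2*. Promoters and gene order came from RefSeq (GRCm38.p6). The alternatives were no block, a random block, quantile normalization, median centring, a filter on signal, an intensity trend, robust moderation, no moderation, all rows, only the arrays compared, and each experiment left out.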

Additional observations from a re-analysis of the deposited data

How the results depend on the processing

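With 3 arrays a group and signals of unknown normalization, small differences between members were not detectable, and 4 of 448 values of single members changed their side of the threshold, all of them of *Il1a*. The genotype difference of *Il1a* on IC (adjusted p = 0.0062) passed in 11 of 13 alternatives, with adjusted p from 0.00051 to 0.0498. With no replicate block 0 members passed there (*Il1a* adjusted p = 1.00), and in the fit with no moderation 0 passed (adjusted p = 0.276). The pairing by experiment removes baseline differences between experiments, which are large for *Il1a*. The block changed the call of no other member. For IC against control in wild-type cells, 1 member, *Il1a*, passed with the experiment as a random block and 1 without experiment 2, and leaving out each experiment gave 0 to 1. Of the pathway lists on IC, the signalling list had 1 gene passing when only the arrays of the groups compared were fitted, and the processing list had 3 in that fit and 1 with the random block. Over all clusters, 47 passed between genotypes on IC, against 0 with no block, 105 with a random block, 22 after median centring, 0 without moderation, 14 with all rows, 173 with only the arrays compared, and 76, 3 and 116 without experiments 1, 2 and 3. For the wild-type response, 0 passed, against 7 with the random block and 51, 1 and 8 without experiments 1, 2 and 3. Between genotypes on IC, *Card9* itself did not pass with no block (adjusted p = 0.078), without moderation (0.203) or without experiment 2 (0.202). The spread of the 4 group means (their SD) for *Il1a* minus *Il1b*, 1.35, was 1.22 to 1.59 without each experiment in turn, that for *Il1rn*, 1.33, was 1.28 to 1.45, and that for *Il1r2*, 1.31, was 1.21 to 1.41, each with an exact permutation p of 0.083 to 0.25, where 2 experiments are left. The excess of *Il1a* in the response of *Card9*-/- cells reversed without experiment 3. With each experiment left out in turn it was −0.14 to 0.56 against *Il1b*, −0.098 to 0.64 against *Il1rn* and −0.16 to 0.50 against *Il1r2*. The cause of these changes was not tested. The alternative of taking the cluster with the lowest signal could not be run, since each measured member has 1 cluster.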
